A study of Mus musculus with 12 samples.

Results

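Of the 12 arrays of a series on mouse blood, 6 came from trained mice and are described here: 3 run on blood taken before the training period (trained pre) and 3 on blood taken after it (trained post), chosen by the sample titles. Each array was loaded with RNA pooled from 7 C57B16/J mice, with globin transcripts depleted. The trained mice had a head-fixing operation at 8 to 12 weeks of age, recovered for 7 days, were kept short of water and learned on an air-supported ball to answer a visual cue for a water reward. The other 6 arrays came from untrained mice, 3 before and 3 after the same period, which had the same operation and water restriction but received water at random. The question of the comparison was how blood transcripts of trained mice changed over the period.

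Several things changed together with time in the trained mice, as in the untrained ones. Blood for trained pre came from a sinus of mice anaesthetised for the operation, and blood for trained post was trunk blood collected when they were killed, by which time they were older, operated on and water-restricted. What belongs to training, to age, to the operation or to the site of collection cannot be told apart within trained mice. In each group arrays 1 and 2 came from a first batch and array 3 from a second, a repeat of the whole experiment. The labels name 34 mice (16 male, 18 female) and call the pools biological replicates, and how the pools divide the mice is not given there. In trained and untrained mice together, 3 separate pools of 7 each would need 42 mice. The labels thus do not settle whether the pools share mice. Each p-value rests on how these pools varied, which may be partly technical.

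Blood RNA is a mixture of the RNA of many cells. Platelets, the fragments that megakaryocytes release, carry adhesion receptors for collagen and von Willebrand factor, receptors for soluble agonists, granules filled with clotting proteins and an actin and tubulin skeleton that changes shape on activation. B lymphocytes carry an antigen receptor made of immunoglobulin chains with CD79A and CD79B, and present antigen on MHC class II. Neutrophils are short-lived granulocytes rich in S100A8 and S100A9. In a pooled blood sample a smaller share of a cell type and less RNA per cell cannot be told apart.

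The values were log2 levels of 27381 features, most of them genes, in which a step of 1 is a factor of 2. In the trained arrays the median feature lay between 1.436 and 1.495, and the Pearson r of 2 arrays was 0.9704 to 0.9779 within trained pre or trained post and 0.9536 to 0.9734 between them, across features, which are not independent. Markers of blood were high: the mean level over the series of Ptprc, the pan-leukocyte CD45, lay at percentile 98.0 of all features, of the B cell gene Cd79a at 99.3, of the T cell gene Cd3e at 98.8, of the neutrophil gene S100a8 at 99.1 and of the platelet gene Ppbp at 99.97. None of 5 sex-linked genes passed the test between trained pre and trained post.

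Between trained pre and trained post 77 of 27381 features passed limma's test at an adjusted p under 0.05 (0.281%). Such features are said to be called. Of these 39 were higher after the period (0.142%) and 38 lower (0.139%). The higher ones changed by 0.69 to 1.53 on the log2 scale with a median of 0.98, and the lower ones by -0.78 to -2.11 with a median of -1.30, while the median change over all features was 0.00448. The adjusted p of the calls ran only from 0.0195 to 0.0494. Before adjustment a p under 0.05 was reached by 1358 higher features (4.96%) and 1482 lower ones (5.41%). Just inside the threshold stood Pdzk1ip1 and Cxcr1 (adjusted p = 0.0494), and just outside it the B cell scaffold gene Bank1, Gsn, Rnf144b and Galnt2 (limma adjusted p = 0.0508).

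The risen and the fallen features were of different kinds. Of the 39 that rose 37 were protein coding and 2 were long non-coding RNAs. Of the 38 that fell 19 were protein coding, 6 were microRNAs, 4 small nucleolar RNAs, 3 pseudogenes, 2 small nuclear RNAs, 2 long non-coding RNAs, 1 a T cell receptor segment and 1 a feature with no name. Among the 531 microRNA features measured 1.13% were called lower and none higher, and among the 20262 protein coding features 0.0938% were called lower and 0.183% higher.

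**Figure D1:**
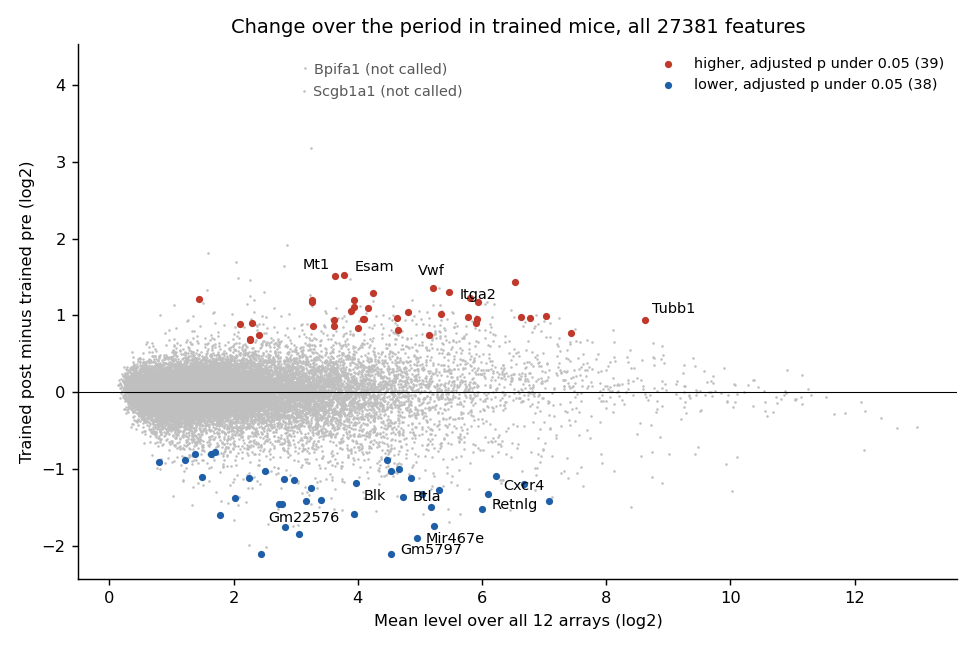
Change between trained pre and trained post (log2, vertical axis) against the mean level over all 12 arrays (log2, horizontal axis) for 27381 features, one point each. The 39 features called higher are red and the 38 called lower are blue. Bpifa1 and Scgb1a1 lie far above all called genes without passing the test.

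The genes that rose were led by genes of platelets. Over 4 lists of platelet genes (adhesion receptors, agonist receptors, granule and clotting proteins, signalling and cytoskeleton) 9 of 67 genes were called higher (13.4%) and none lower. Over all features 0.142% were called higher and 0.139% lower. A positive change was seen in 58 of the 67 genes, against 51% of all features, and the median change was 0.56. Without trained post 2 the median was 0.26 in place of 0.43 for the granule and clotting list and 0.30 in place of 0.47 for the agonist receptors. The trained pre and trained post values did not overlap, with post higher, in 39 of the 67 genes, against 8.51% of all features. The 67 genes were chosen with earlier results of these data known, so the counts describe them and are no independent support.

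Among the adhesion receptors, Itga2, the alpha 2 chain of the platelet collagen receptor, stood at 4.51, 4.92 and 4.98 in the trained pre arrays and at 5.75, 6.40 and 6.16 in the trained post arrays. All 3 post arrays lay above all 3 pre arrays, and the change was 1.30 ± 0.19 (standard error; limma adjusted p = 0.0259), a 2.46-fold rise. It was the only one of 15 adhesion receptors past the threshold. The integrin chain Itga2b, which pairs with Itgb3 to bind fibrinogen, changed by 0.92 ± 0.17 (adjusted p = 0.0525), Gp5 by 0.86 and Gp1ba, a chain of the von Willebrand factor receptor, by 0.56. Gp9, another chain of that receptor and among the most abundant transcripts of the blood, changed by 0.10.

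Of 12 agonist receptors 2 rose. P2ry1, a receptor for ADP, went from 2.26, 3.01 and 2.79 to 3.46, 4.14 and 3.98, a change of 1.18 ± 0.21 (adjusted p = 0.048). Gucy1b1, the beta 1 chain of the guanylate cyclase that senses nitric oxide, went from 5.08, 5.65 and 5.20 to 6.06, 6.60 and 6.21, a change of 0.98 ± 0.18 (adjusted p = 0.048). Array 2 was highest and array 1 lowest of their group in both genes after the period, and post stayed above pre throughout. Its partner chain Gucy1a1 changed by 0.72 (adjusted p = 0.15).

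Among 20 granule and clotting genes, F5 and Vwf rose. F5, which encodes clotting factor V, was at 5.70, 6.07 and 5.67 before and at 6.77, 7.51 and 7.48 after the period, a change of 1.44 ± 0.20 (adjusted p = 0.0259) or 2.71-fold. Vwf, von Willebrand factor, was at 3.79, 4.82 and 4.75 before and at 5.46, 5.95 and 6.02 after, a change of 1.36 ± 0.23 (adjusted p = 0.0456) or 2.57-fold. For Vwf the lowest value was that of trained pre 1, which also had the lowest Itga2, P2ry1 and Tubb1. The angiopoietin gene Angpt1 (1.06, adjusted p = 0.0669) and the factor XIII gene F13a1 (1.15, adjusted p = 0.0873) did not pass, and Ppbp, a chemokine of the alpha granule, changed by -0.04.

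Of 20 genes of signalling and cytoskeleton 4 rose, and all 20 had a positive change (0.29 to 0.95). Tubb1, the beta tubulin of the platelet's marginal band, went from 7.82, 8.28 and 8.37 to 8.81, 9.25 and 9.21, a change of 0.93 ± 0.16 (adjusted p = 0.0471). Fermt3, the integrin activator kindlin-3, went from 7.09, 7.17 and 6.88 to 7.79, 7.97 and 7.70, and changed by 0.77 ± 0.12 (adjusted p = 0.0361). The other two were talin (Tln1, 0.90 ± 0.16, adjusted p = 0.048), which links integrins to actin, and Mrvi1 (0.95 ± 0.17, adjusted p = 0.0485), a target of the cGMP-dependent kinase on the calcium store. In these 4 genes the pre and post arrays did not overlap.

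Beside them, the megakaryocyte transcription factors had no member past the threshold and a median change of 0.32 over 10 genes. Gata1, the factor that drives megakaryocyte and red cell genes, was at 3.68, 4.21 and 4.09 before and at 4.80, 5.06 and 5.03 after, a change of 0.97 ± 0.19 (adjusted p = 0.0598). Genes of red cells, which share several of these factors, had 0 of 27 members called and a median change of 0.15. None of 20 cell cycle genes and none of 11 genes of marrow progenitors passed.

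Esam, an adhesion molecule of both endothelial cells and platelets, had the largest rise of all called genes. It was at 2.69, 3.45 and 2.94 before and at 4.22, 5.09 and 4.36 after the period, a change of 1.53 ± 0.24 (adjusted p = 0.0383) or 2.89-fold, with array 2 highest at both times. Of 16 endothelial genes it was the only one called, and the median change of that list was 0.17. A positive change was seen in 14 of the 16, against 51% of all features. Post arrays lay wholly above pre arrays in 6, against 8.51% of all features. A positive change with an unadjusted p under 0.05 was seen in 5, against 4.96% of all features. Besides Esam these 5 were Pecam1 (0.67, adjusted p = 0.0951), Cdh5 (0.64, adjusted p = 0.252), Egfl7 (0.48, adjusted p = 0.314) and Kdr (0.40, adjusted p = 0.398). Among the members that changed little, Emcn, Tie1 and Cldn5 changed by 0.02, 0.02 and 0.07. Their mean levels lay between 0.782 and 1.59, near or below the median feature. The list was chosen with earlier results of these data known. The mean level of the 16 genes was between 1.80 and 1.84 in the pre arrays and between 2.08 and 2.16 in the post arrays, and the part of such cells in the rise of Esam was not tested.

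**Figure D2:**
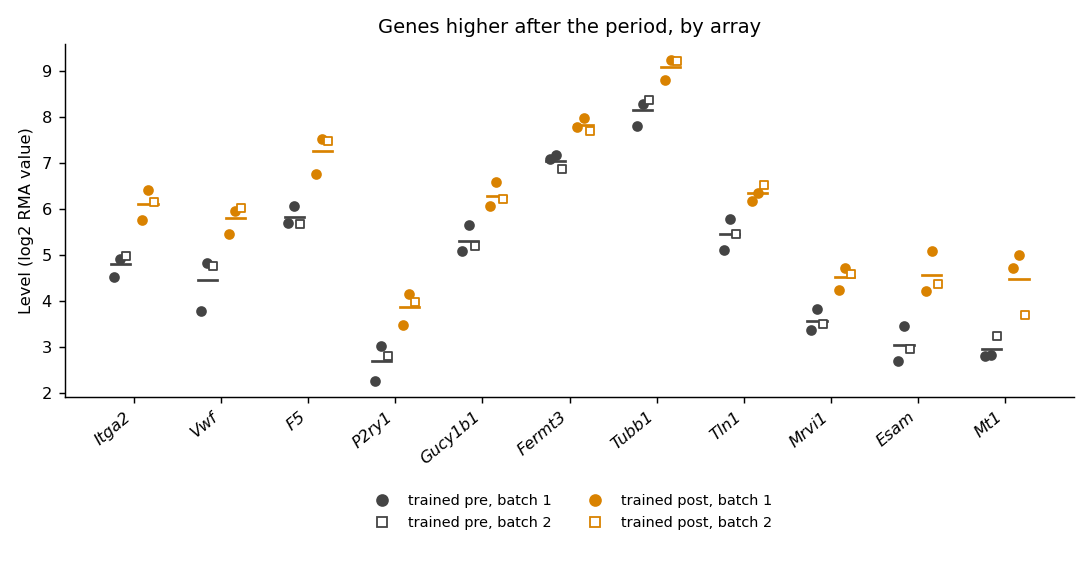
Level (log2, vertical axis) of 11 genes that rose, in each trained array: grey for trained pre, orange for trained post, filled circles for the first batch, open squares for the second, lines for group means. In every gene all 3 post values lie above all 3 pre values, and for Mt1 the batch 2 post value (3.70) lies far below those of batch 1.

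Outside the lists, other surface and matrix genes rose with them. The integrin chain Itgb5 changed by 1.17 ± 0.16, the adhesion G protein-coupled receptor Adgrg1 by 1.23 ± 0.20, the semaphorin receptor Plxna4 by 1.20 ± 0.17, the matrix gene Ecm1 by 0.96 ± 0.15 and the membrane protein gene Ninj1 by 0.81 ± 0.13 (adjusted p = 0.0259 to 0.0383). Itgb5 went from 5.14, 5.60 and 5.38 to 6.37, 6.67 and 6.60. Plxna4 went from 2.66, 2.98 and 2.52 to 3.69, 3.80 and 4.27, with the batch 2 array lowest before and highest after.

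Among signalling genes 7 rose, by 0.69 to 1.20. Among them were the receptor kinase Grk5 (1.20 ± 0.19), the adaptor Nck2 (1.06 ± 0.16), the GTPase regulator Arhgap10 (0.99 ± 0.16), the kinase Mast2 (0.97 ± 0.16), beta-arrestin 1 (Arrb1, 0.74 ± 0.13) and the angiotensin receptor partner Agtrap (0.69 ± 0.12). Grk5 and Arrb1 both act in switching off G protein-coupled receptors. Grk5 went from 3.48, 3.70 and 3.10 to 4.36, 4.995 and 4.53, and Arrb1 from 4.61, 4.90 and 4.83 to 5.33, 5.61 and 5.63. In both, as in all 39 called genes, the pre and post arrays did not overlap.

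The remaining risen genes had other roles. Mfsd2b, the exporter of sphingosine 1-phosphate in red cells and platelets, changed by 0.99 ± 0.17, Gas2l1, which bridges actin and microtubules, by 1.01 ± 0.18, and Samd14 by 1.12 ± 0.20 (adjusted p = 0.0478 in each). The interferon-inducible GTPase gene Igtp changed by 1.04 ± 0.19, the mitochondrial receptor gene Nlrx1 by 0.87 ± 0.14, the chemokine receptor gene Cxcr1 by 0.70 ± 0.13, and Nprl3, a subunit of a brake on the mTOR pathway, by 0.84 ± 0.14. Cnst (1.09), Otud7b (0.96), Pdzk1ip1 (0.95), Ctif (0.89) and Tmem140 (0.87) also rose, with the long non-coding RNAs AI504432 (1.30) and Zeb2os (0.94). The protein coding 1700065D16Rik (1.22 ± 0.17) was the 1 risen feature with a group mean below the median level, where the size of a fold is uncertain.

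A pair of metal genes rose. Mt1, a metallothionein that binds zinc and copper and is induced by metals and glucocorticoids, went from 2.80, 2.83 and 3.24 to 4.71, 5.0003 and 3.70, a change of 1.51 ± 0.27 (adjusted p = 0.048). The change was 2.04 in batch 1 and 0.46 in batch 2, the widest gap between batches of all 77 called features. Slc39a4, a zinc importer, went from 2.19, 2.41 and 2.06 to 2.81, 3.13 and 2.97, a change of 0.75 ± 0.13 (adjusted p = 0.0478), with 0.67 in batch 1 and 0.91 in batch 2. The second metallothionein Mt2 changed by 1.46 (2.01 in batch 1, 0.35 in batch 2; adjusted p = 0.299), the cell cycle inhibitor Cdkn1a by 1.15 (adjusted p = 0.0615) and the phosphatase gene Dusp1 by -1.53 (adjusted p = 0.0818). Of the 16 genes of metal and glucocorticoid response 1, Mt1, was called, and the list's median was 0.03.

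The promoter window of Mt1 is shown because it holds the short elements through which metals are known to induce metallothioneins. RefSeq (GRCm38.p6) places it at chr8:94178839-94179138 on the plus strand, from 250 bases before to 50 after the annotated start, and capitals mark TGCACNC and TGCGCNC, searched on both strands.
Mt1: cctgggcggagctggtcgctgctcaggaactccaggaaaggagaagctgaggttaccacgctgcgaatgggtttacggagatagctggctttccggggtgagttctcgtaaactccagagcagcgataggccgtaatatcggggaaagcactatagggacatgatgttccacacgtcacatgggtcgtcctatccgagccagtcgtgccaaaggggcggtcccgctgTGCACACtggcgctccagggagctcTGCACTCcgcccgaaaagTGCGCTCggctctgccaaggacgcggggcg
The window held 3 matches, all on the gene's own strand. At least 3 matches were found in 1.97% of all 32851 promoter windows and at least 1 in 25.7%. Of the 26 risen genes with a window 8 held at least 1 in any window. That is a count by gene, not by window, so it cannot be set directly against 25.7%. A match is a description of the letters and says nothing of a bound factor. In the same windows AGATAA, the core of sites known for GATA factors, was held by 1 of the 8 risen platelet genes with a window, and by 12.7% of all genes. GGAAGT, known for ETS factors, was held by 1 of these 8 and by 26.5% of all genes.

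The genes that fell included genes of B cells. Over 2 lists, receptor and signalling genes and genes of survival, homing and transcription, 2 of 33 genes were called lower (6.06%) and none higher. Over all features 0.139% were called lower and 0.142% higher. All 33 had a negative change, against 49% of all features, with a median of -0.87, and in 24 of them the post arrays lay wholly below the pre arrays, against 7.78% of all features. The median was -0.66 in batch 1 and -1.13 in batch 2. Without trained post 3 it was -0.78 in place of -1.10 for the receptor list and -0.43 in place of -0.73 for the survival list. These genes, too, were chosen with earlier results known.

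Blk, a Src-family kinase of B cells, went from 4.66, 4.91 and 4.39 to 3.86, 3.35 and 3.20, a change of -1.18 ± 0.21 (adjusted p = 0.0478). Cd72, an inhibitory coreceptor on B cells, went from 5.54, 5.15 and 4.93 to 4.42, 4.20 and 3.93, a change of -1.02 ± 0.18 (adjusted p = 0.048). In both genes trained post 3, the batch 2 array, was lowest and no post value reached a pre value. Larger changes did not pass: Bank1 changed by -1.68 ± 0.31 (adjusted p = 0.0508) and Cd79a by -1.21 ± 0.27 (adjusted p = 0.0908). Bank1 was at 6.80, 6.35 and 6.12 before and at 5.25, 4.97 and 3.998 after, so the post arrays spread over a wider range than the pre arrays.

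Trained post 3 was also the lowest of the trained arrays in the mean level of the MHC class II, T cell, neutrophil, monocyte and NK lists. In the dendritic cell list the lowest was trained post 1 (1.82), and in the plasma cell list trained pre 3 (2.77). The mean level of the 18 receptor and signalling genes was between 5.53 and 5.80 in the pre arrays and 5.17, 4.80 and 4.03 in trained post 1, 2 and 3. The 10 MHC class II genes all had a negative change with a median of -0.87, none passed, and their mean level was between 5.43 and 5.86 before and between 4.25 and 5.39 after. Ptprc, found on all white cells, changed by -0.75 (-0.35 in batch 1, -1.55 in batch 2; adjusted p = 0.431) and was at 5.07 in trained post 3, against 6.09 or more in the other trained arrays. Its part in the results for B cell genes was not tested.

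Immunoglobulin segments went the same way as a group, though none passed. Of 214 segments of the heavy, kappa and lambda chains 175 had a negative change (81.8%), against 49% of all features. Their median was -0.30, with -0.27 in batch 1 and -0.42 in batch 2. Of 166 T cell receptor segments 99 had a negative change (59.6%), with a median of -0.06. One of these, Trav6d-4, a variable segment of the alpha chain, fell by 1.38 on the log2 scale (standard error 0.22, adjusted p = 0.0383), from 2.81, 2.34 and 3.22 to 1.32, 1.43 and 1.49. The segments are close copies of each other, and probes may not tell them apart.

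Other genes of lymphocytes and granulocytes that fell were 4. Btla, an inhibitory receptor of B and T cells, went from 5.27, 5.54 and 5.43 to 4.44, 4.19 and 3.51 (-1.36 ± 0.23, adjusted p = 0.0447). Cxcr4, the receptor that holds leukocytes and their precursors in the marrow through CXCL12, went from 6.56, 7.12 and 6.68 to 5.96, 5.84 and 5.29 (-1.09 ± 0.19, adjusted p = 0.0471). Ifi209, of the interferon-inducible p200 family, went from 4.07, 4.07 and 3.94 to 2.77, 3.32 and 2.25 (-1.25 ± 0.21, adjusted p = 0.0407). In all of these genes the lowest value was that of trained post 3.

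Retnlg, a resistin-like gene of neutrophils, went from 6.94, 7.22 and 5.98 to 5.93, 5.47 and 4.18 (-1.52 ± 0.27, adjusted p = 0.048). The highest post value lay just 0.0527 below the lowest pre value, which belonged to the other batch. Within batches the change was -1.38 and -1.81. Of 24 neutrophil genes it was the only one called, and 19 of the 24 had a negative change with a list median of -0.24. S100a8 (-1.03 ± 0.21, adjusted p = 0.066) and S100a9 (-0.84 ± 0.18, adjusted p = 0.088) did not pass. The neutrophil median was -0.10 in batch 1 and -0.67 in batch 2, and -0.14 without trained post 3.

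No gene was called among 22 T cell genes (median -0.18), 18 monocyte genes (-0.07) and 19 NK and cytotoxic genes (0.04). The T cell median was -0.06 in batch 1 and -0.62 in batch 2, and -0.03 without trained post 3. The monocyte median was 0.07 in batch 1 and -0.39 in batch 2, and 0.04 without trained post 3. For NK and cytotoxic genes it was 0.13 and 0.00 in the batches. The mean level of the T cell genes was 4.13, 4.14 and 3.46 in trained post 1, 2 and 3, and between 4.09 and 4.30 in the pre arrays.

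**Figure D3:**
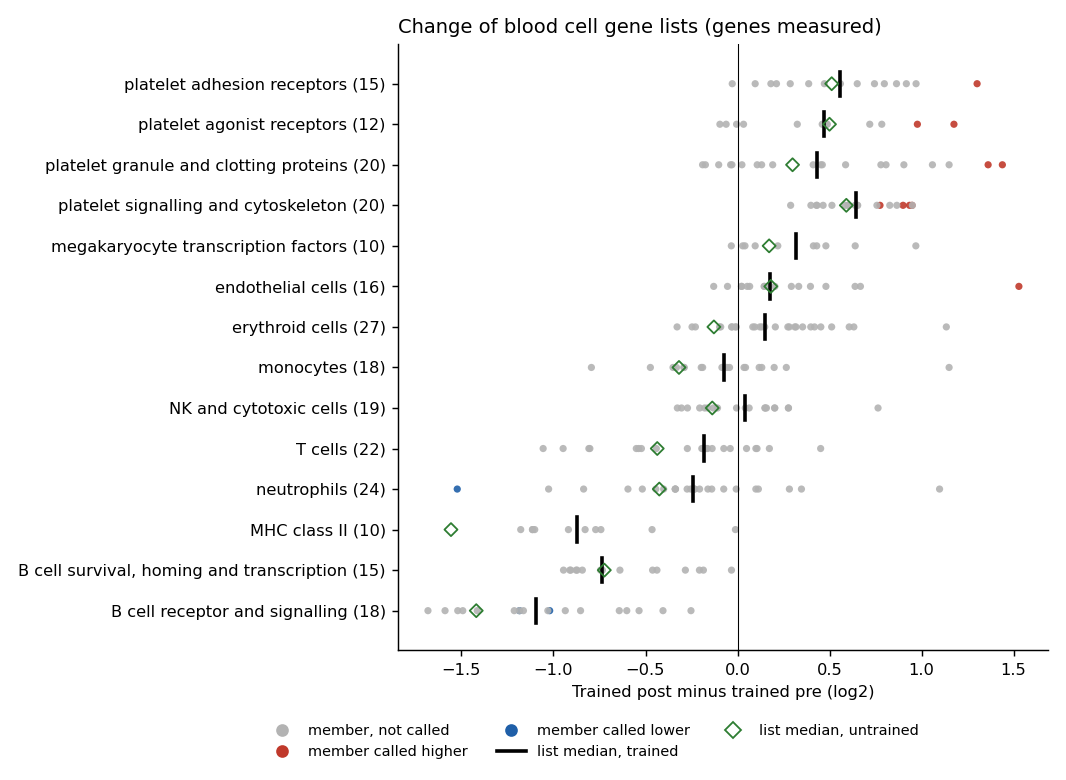
Change between trained pre and trained post (log2, horizontal axis) of each gene in 14 lists, with the number measured in parentheses; black bars are the medians in trained mice and green diamonds those in untrained mice. The 4 platelet lists lie to the right of 0 (medians 0.43 to 0.65), and the MHC class II list and both B cell lists lie to the left (-0.87, -0.73 and -1.10).

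Of the 38 features that fell, 6 were microRNAs, small RNAs that pair with messenger RNAs mainly through bases 2 to 8, the seed. Mir467e went from 6.50, 5.85 and 6.10 to 4.28, 4.36 and 4.13 (-1.90 ± 0.27, adjusted p = 0.0259), a 3.72-fold fall and the largest of the 6. Mir680-1 changed by -1.58 ± 0.28, Mir466j by -1.49 ± 0.27, Mir28b by -1.40 ± 0.25, Mir467c by -1.33 ± 0.22 and Mir713 by -1.11 ± 0.19 (adjusted p = 0.0385 to 0.048). A feature here is the gene on the array, and whether its value came from the mature form or from a longer transcript was not tested.

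The mature forms of 4 of them in RefSeq (GRCm38.p6) are printed to show whether they share a target seed, with the seed in capitals.
miR-680: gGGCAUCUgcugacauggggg
miR-466j: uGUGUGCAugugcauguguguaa
miR-28b: aGGAGCUCacaaucuauuuag
miR-713: uGCACUGAaggcacacagc
The 4 seeds differed from each other. Mature miR-680 lies at chr6:129691541-129691561, miR-466j at chr10:60960802-60960824, miR-28b at chr8:73016523-73016543 and miR-713 at chr13:62760807-62760825, all on the plus strand. Mir467e and Mir467c lie on chromosome 2.

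Mir680-1 went from 5.11, 5.01 and 4.53 to 3.11, 3.26 and 3.53, and Mir28b from 4.55, 4.15 and 3.77 to 2.43, 2.69 and 3.14. In both the batch 2 array was the lowest before and the highest after, so the change was smaller in batch 2: -1.003 against -1.87 for Mir680-1 and -0.63 against -1.79 for Mir28b. Mir466j, from 6.22, 5.48 and 5.99 to 4.64, 3.92 and 4.66, and Mir467c, from 7.18, 6.57 and 6.91 to 5.39, 5.58 and 5.70, had changes of like size in both batches. Mir713 went from 2.78, 2.80 and 2.96 to 1.59, 1.70 and 1.92.

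Mir467e, Mir467c and Mir466j belong to a large mouse family, with many copies in an intron of Sfmbt2 on chromosome 2. Of 35 measured features named Mir466, Mir467, Mir669 or Mir297, 3 were called lower and none higher, 22 had a negative change (62.9%) and the median was -0.15. Of the 496 other microRNA features 3 were called lower, 43.8% had a negative change and the median was 0.02. Sfmbt2 itself, at a mean level of 0.878, changed by -0.01 (adjusted p = 0.993). Copies of the family are alike in sequence and may share probes, so these 3 calls may not be separate measurements.

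**Figure D4:**
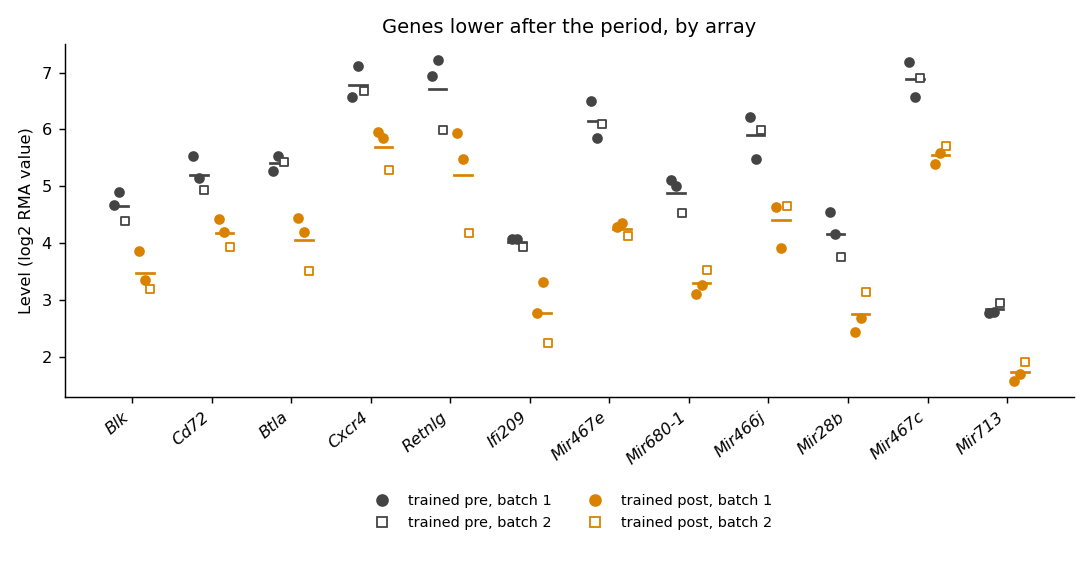
Level (log2, vertical axis) of 6 protein coding genes and 6 microRNAs that fell, in each trained array: grey for trained pre, orange for trained post, filled circles for the first batch, open squares for the second, lines for group means. In the protein coding genes the batch 2 post value is the lowest (Retnlg 4.18), while in Mir680-1, Mir466j, Mir28b, Mir467c and Mir713 it is the highest of the post values.

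Other small RNAs fell beside them. Gm22576, annotated as a small nuclear RNA gene on chromosome 16, had the smallest adjusted p of all features: it went from 3.44, 3.55 and 3.64 to 1.93, 2.05 and 2.30 (-1.45 ± 0.16, adjusted p = 0.0195), with a gap of 1.15 between the groups. Rnu11, the U11 RNA of the minor spliceosome, went from 7.64, 6.89 and 7.40 to 6.42, 5.89 and 6.06 (-1.19 ± 0.21, adjusted p = 0.048). The small nucleolar RNA genes Gm23862 (-1.75 ± 0.26), Gm23716 (-1.27 ± 0.16), Gm25466 (-1.15 ± 0.16) and Gm22595 (-0.80 ± 0.13) fell as well, and so did the pseudogenes Gm23181 (-1.59), Gm26015 (-1.41) and Gm6192 (-1.33). Of the 889 small nucleolar RNA features 59.8% had a negative change, against 49% of all features, with a median of -0.05.

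The largest falls were those of multicopy genes. Gm5797 went from 5.84, 5.61 and 5.61 to 2.97, 3.97 and 3.79 (-2.11 ± 0.29, adjusted p = 0.0259), a 4.32-fold fall, and Gm3411, on the same chromosome 14, went from 4.54, 4.01 and 3.71 to 1.96, 2.70 and 2.06 (-1.84 ± 0.25, adjusted p = 0.0259). Of 11 measured genes of the Btbd35 family, on chromosome X, 3 fell: Btbd35f6 (-2.10 ± 0.33), Btbd35f1 (-1.74 ± 0.30) and Btbd35f12 (-1.12 ± 0.20). Over all features 0.139% were called lower. The family's median change was -0.72, with -0.98 in batch 1 and -0.21 in batch 2. Such copies may share probes, and their values are uncertain as values of single genes.

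Among the remaining fallen features were genes known from other tissues. The odorant receptor genes Olfr715 (-0.90 ± 0.16) and Olfr578 (-0.88 ± 0.15), the pheromone receptor gene Vmn1r158 (-1.11 ± 0.17) and the cornified envelope gene Lce3c (-1.45 ± 0.20) passed the test. Olfr715 went from 1.36, 1.41 and 1.61 to 0.84, 0.33 and 0.51, near or below the median of all features. In all, 9 of the 38 fallen features had a group mean below that median, where the size of a fold is uncertain. Of 1070 odorant receptor genes 698 had a negative change (65.2%, median -0.07), against 49% of all features. Of these 1070 genes 2 were called lower, while 0.139% of all features were. Lynx1, a modulator of nicotinic receptors (-1.13 ± 0.19), Acss1, a mitochondrial acetyl-CoA synthetase (-0.88 ± 0.15), Tmem243 (-0.998 ± 0.16), Klhl14 (-0.78 ± 0.14), the long non-coding RNAs 1700030C10Rik (-1.03) and A730081D07Rik (-0.80) and the feature of Entrez number 100043160 (-1.41) complete the list.

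The largest changes in trained mice were in genes of the airway and did not pass. Bpifa1, a secreted protein of the upper airway, was at 0.67, 0.51 and 1.36 before and at 4.12, 7.60 and 3.47 after (4.21 ± 0.90, adjusted p = 0.0818). Scgb1a1, the club cell secretory protein, was at 0.41, 0.60 and 2.18 before and at 4.65, 7.76 and 2.53 after (3.92 ± 1.21, adjusted p = 0.222). Cyp2f2, an enzyme of club cells, was at 1.61, 1.21 and 2.30 before and at 3.79, 6.61 and 4.25 after (3.18 ± 0.73, adjusted p = 0.104). In all of them the post arrays lay above the pre arrays, and trained post 2 was far above the others. In untrained mice the changes were of like size: 4.50 for Bpifa1, 4.52 for Scgb1a1 and 3.47 for Cyp2f2. Bpifa1 was called there (limma adjusted p = 0.0477), and none of them passed the test of the difference between the changes. Over the 18 genes of airway and skin 14 had a positive change, the median was 0.14, and the mean level went from between 1.39 and 1.71 to between 2.02 and 2.99. The part of such cells in the results for other genes was not tested. Lists for skeletal muscle (median 0.12), bone and connective tissue (0.03) and brain (0.00) had no member called.

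Of the other pathway lists none had a member called. The median change was -0.28 over 25 interferon-stimulated genes, -0.21 over 22 genes of the NF-kB pathway, 0.25 over 16 heat shock genes, -0.08 over 16 immediate-early genes, -0.04 over 18 clock genes and 0.04 over 20 respiratory chain genes. In batches 1 and 2 the median was 0.37 and -0.08 for heat shock genes, -0.05 and -0.45 for NF-kB genes and -0.19 and -0.36 for interferon-stimulated genes. Without trained post 3 it was -0.10 for NF-kB and -0.16 for interferon-stimulated genes, and without trained post 2 it was 0.12 for heat shock genes. Within interferon-stimulated genes the members did not move as one: Ifit2 changed by 0.95 (adjusted p = 0.0994) while Isg15 changed by -0.66 (adjusted p = 0.136) and Irf7 by -0.67 (adjusted p = 0.256).

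Of 7 genes that the study followed on these samples none passed the test over the period in trained mice. Card6, a caspase recruitment domain gene, was at 2.60, 3.22 and 2.86 before and at 2.51, 2.41 and 1.65 after (-0.70 ± 0.24, adjusted p = 0.27), and Nfkb2, a subunit of NF-kB, changed by -0.40 ± 0.15 (adjusted p = 0.357). The nuclease gene Dnase1l2 changed by 0.26 ± 0.15 (adjusted p = 0.605). The changes of Ikbkb, an IkB kinase (-0.13 ± 0.30), Irf8, a factor of myeloid and B cells (-0.07 ± 0.19), Impdh2, an enzyme of guanine nucleotide synthesis (-0.13 ± 0.53), and Ywhaz, a 14-3-3 protein (0.04 ± 0.14), were smaller than their standard errors.

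Both batches gave the same direction for all 77 called features, which the test used jointly. The median change of the 39 higher features was 0.95 in batch 1 and 1.05 in batch 2, and that of the 38 lower ones was -1.20 and -1.27. The change in batch 2 was less than 0.5 times that in batch 1 for 2 features, Mt1 and Mir28b, and over 1.5 times as large for 6, among them Plxna4 (0.92 and 1.75) and Btla (-1.09 and -1.92). With batch 1 alone 2 features were called higher and 6 lower, and of these 2 and 5 had the same sign in batch 2, which had 1 array a group and gave no test.

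The calls rested on single arrays. Without trained post 3, 0 features were called higher and 1 lower, without trained post 2 it was 1 and 5, without trained pre 1 it was 1 and 0, and without trained pre 3 it was 1 and 1. Without trained pre 2 it was 124 and 75, and without trained post 1 it was 98 and 60. The untrained arrays, which entered through the shared estimate of the spread, mattered too: without untrained post 2 it was 12 and 14 and without untrained post 3 it was 14 and 22. Fitted to the 6 trained arrays alone, the test called 1 feature higher and 21 lower. All 77 features kept their sign and an unadjusted p under 0.05 in each of the tested settings they entered, which were 20 or 21. They had been chosen by a small p on these same arrays, which favours such an outcome.

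Side by side with the untrained mice, whose arrays are other ones, most called features had changed the same way. Of the 39 that rose in trained mice 35 had a positive change in untrained mice, with a median of 0.72, and 14 were called higher there. Of the 38 that fell 33 had a negative change in untrained mice, with a median of -0.62, and 9 were called lower there. Over all features 58.6% had the same sign in both. Since the features were chosen for their size in trained mice, a smaller value in untrained mice is favoured by the choice: for the 185 features called in untrained mice (0.676%), 45 higher (0.164%) and 140 lower (0.511%), the medians in trained mice were likewise smaller, 0.87 against 1.07 and -0.59 against -1.11.

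The platelet and B cell genes moved in untrained mice as well. The median change of the 67 platelet genes was 0.56 in trained and 0.48 in untrained mice, and that of the 33 B cell genes was -0.87 and -1.15. None of these genes passed the test of the difference between the changes, and 1 of 67 and 3 of 33 had an unadjusted p under 0.05 there. F5 changed by 1.622, Itga2 by 1.29 and Tubb1 by 0.90 in untrained mice, each past the threshold there too, while Esam changed by 0.29 (limma p of the difference = 0.00372 before adjustment, and not past the threshold after it). Before the period the mean of Esam was 3.03 in trained and 3.62 in untrained mice. MHC class II genes had a median of -1.56 in untrained mice, with 8 of 10 called lower there. The difference had an unadjusted p under 0.05 in 3 of these genes. H2-Aa, the MHC class II alpha chain, changed by -0.83 in trained and -2.10 in untrained mice (limma p of the difference = 0.00303 before adjustment).

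Of all features 1 passed the test of the difference (0.00365%), against 766 and 786 at an unadjusted p under 0.05 (2.80% and 2.87%). It was Gm22576, which fell in trained mice and in untrained mice went from 2.33, 2.46 and 2.38 to 3.03, 3.10 and 2.57 (0.51 ± 0.16, adjusted p = 0.173). The difference was -1.96 ± 0.22 (limma adjusted p = 0.0317). The call was lost in 10 of the 12 fits with an array left out (adjusted p = 0.00326 to 0.221) and with batch 1 alone (adjusted p = 0.0705). The 3 trained pre arrays stood above all 9 others and the 3 trained post arrays below all 9 others. Among named genes at or above the median level the smallest p belonged to Brk1, a subunit of the WAVE actin regulator (0.48 in trained, -0.77 in untrained mice, difference adjusted p = 0.21), Cxcr1 (0.70 and -0.31) and Rhbdd2 (-0.71 and 0.53, both with a difference adjusted p = 0.606). In these genes trained pre and untrained pre already stood apart. Brk1 was at 4.02, 3.997 and 3.34 in trained pre and at 4.84, 4.85 and 4.03 in untrained pre. Cxcr1 was at 1.89, 1.72 and 2.04 against 2.28, 2.56 and 2.47. Rhbdd2 was at 3.22, 2.63 and 2.88 against 1.94, 2.13 and 2.15.

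**Figure D5:**
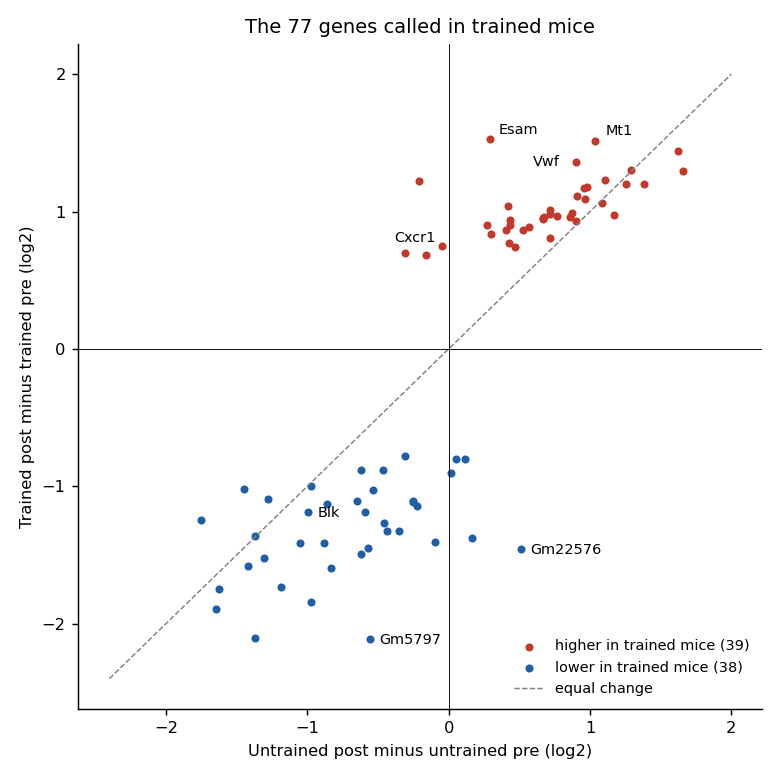
Change over the period in trained mice (log2, vertical axis) against that in untrained mice (log2, horizontal axis) for the 77 features called in trained mice, red for higher and blue for lower, with a dashed line of equal change. Most points lie in the quadrants of equal sign, and Gm22576 (-1.45 and 0.51) lies apart.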

How the data were processed

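Whole-transcript mouse arrays, 12 in number, gave values for 27381 features, each an Entrez gene. The authors deposited log2 values, made from the scans with RMA, a method that corrects background, equalises the distributions of the arrays and summarises the probes of a gene (the submitters' processing notes name affy 1.62.0 and R 3.6.0). Whether batches were adjusted before deposit and the genome build of the probe sets are not given in the sources used here. RMA scales each array to the same distribution, so a change is relative to the other transcripts, and the number of arrays limits the precision. No feature was filtered and no detection call was used.

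A symbol came from the platform table for 26794 features and from RefSeq (GRCm38.p6), by Entrez number, for 564, which left 23 unnamed. The model was fitted with limma 3.58.1 (lmFit and eBayes, R 4.3.3) to all 12 arrays with 4 group means and batch as a term (7 residual degrees of freedom). The contrasts were post minus pre in trained mice, the same in untrained mice and their difference. All p-values were two-sided and adjusted by Benjamini-Hochberg over the 27381 features, with calls under 0.05. Fold values are 2 to the power of the fitted change. Batch values are differences of group means within a batch. A group's values did not overlap where all 3 post arrays lay above, or below, all 3 pre arrays.

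The members and the 34 gene lists (542 of 549 names matched to a feature of their own) were chosen with earlier results of these data known, and lists are described by counts and medians with no test. The rule for names was every called feature by type, the 15 largest changes in each direction with a proper symbol, called microRNAs, up to 5 list members with the smallest p, the study's 7 genes, checks, and the genes nearest to the threshold of the difference; other called features, abundant or defining list members and the promoter elements were named after their values were seen. Alternatives were no batch term, the replicate number as a block, the 6 trained arrays by themselves, either batch by itself, array weights, a trend in eBayes, a further quantile normalization, centring of arrays on medians, a filter at the median level and each array left out. The fit was tested on simulated data. A few genes are not reported here.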

Additional observations from a re-analysis of the deposited data

Results flagged for a closer look

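Gm22576, annotated as a small nuclear RNA gene, was the 1 feature whose change over the period differed between trained and untrained mice: the difference was -1.96 ± 0.22 (limma adjusted p = 0.0317), with -1.45 in trained and 0.51 in untrained mice. The group means already stood apart before the period, at 3.55 in trained and 2.39 in untrained mice, and were 2.09 and 2.90 after it. Within batches the change was -1.51 and -1.34 in trained mice and 0.67 and 0.20 in untrained mice. The call was lost in 10 of the 12 fits with an array left out (limma adjusted p = 0.00326 to 0.221), with batch 1 alone (adjusted p = 0.0705) and with the replicate block (adjusted p = 0.0649). The direction stayed the same in these fits. It was found among 27381 features tested.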

How the results depend on the processing

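The 39 higher and 38 lower calls moved with most settings. Without a batch term 74 features were called higher and 50 lower, among features at or above the median level 77 and 64, after quantile normalization 64 and 36, with arrays centred on their medians 20 and 16, with limma's trend option 7 and 15, with trained arrays alone 1 and 21, and with batch 1 alone 2 and 6. Higher features made up 50.6% of the calls, and 64.0% after quantile normalization. With the replicate number as a block 37 were called higher and 25 lower, and 0 features differed between trained and untrained mice. Same-numbered trained arrays correlated at 0.00835, 0.117 and -0.0669 after group means were removed. With 3 arrays a group these values cannot settle whether the replicate numbers pair the arrays. Leaving out each array in turn gave 0 to 124 higher and 0 to 75 lower calls, with 23 and 26 without untrained pre 3 and 24 and 33 without untrained post 1. The number of features called for the difference was 0 with batch 1 alone and 0 to 1 with an array left out; Gm22576 itself was called in 2 of those 12 fits. The median change of all features stayed between -0.00322 and 0.0143 in the tested settings, and it was 0.0205 in batch 2 alone. All 77 features kept their direction in every setting that included them, batch 2 alone among them. The same arrays had served to choose the features, so this outcome was favoured by the choice. Of the study's genes, none of which was called, 4 changed sign. With batch 1 alone the change was 0.0526 for Impdh2, 0.133 for Irf8 and 0.320 for Ikbkb. Without trained post 3 it was 0.365 for Impdh2, 0.0810 for Irf8, 0.280 for Ikbkb and -0.00279 for Ywhaz. Without trained pre 3 it was 0.0516 for Irf8 and 0.0626 for Ikbkb, without trained pre 2 it was 0.106 for Impdh2, and without trained pre 1 it was -0.0481 for Ywhaz. Over all arrays left out, the change ran from -0.625 to 0.365 for Impdh2, from -0.197 to 0.0810 for Irf8, from -0.435 to 0.280 for Ikbkb and from -0.0481 to 0.115 for Ywhaz. The cause was not tested. Levels near the median of all features are close to the floor of the arrays and limit the size of a fold.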
